A study of Mus musculus with 12 samples.

Results

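The genes of mitochondrial and peroxisomal fatty acid oxidation were followed in mouse liver in 4 groups of 3 animals. Their 33 symbols were drawn up as a list, and for each symbol the probe set that names it alone and has the highest mean over all 12 arrays was read, out of 18193 genes read the same way. Of the 33 genes, 16 act in mitochondria (Cpt1a, Cpt2, Slc25a20, Acadm, Acadl, Acadvl, Acads, Hadha, Hadhb, Hadh, Acaa2, Eci1, Etfa, Etfb, Etfdh and Decr1), 11 in peroxisomes (Acaa1a, Acaa1b, Ehhadh, Hsd17b4, Acox2, Acox3, Decr2, Crot, Abcd2, Abcd3 and Pex11a) and 4 were kept apart because they are known in more than 1 organelle: Eci2, Ech1 and Crat in mitochondria and peroxisomes, and Slc27a2 in peroxisomes and the endoplasmic reticulum (ER). Pdk4 and Bdh1, which stand beside the pathway at the choice of fuel and at ketone bodies, complete the list.

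The groups were wild-type (Atf6a +/+) and Atf6a-/- animals that received tunicamycin (TM) or vehicle into the peritoneum. TM was given at 1 mg/kg in 150 mM dextrose, vehicle was the dextrose alone, and total RNA was taken from liver homogenate 34 h later, with 1 Affymetrix array per animal. The study's methods state that animals were fasted for a few hours before they were killed. Age and sex varied among the animals and are not given for any of them, and which part of the Atf6 gene the deletion removes is not given in the sources used here. ATF6a is a membrane protein of the ER that is cut under ER stress to release a transcription factor, and TM causes such stress by blocking N-linked glycosylation.

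Fatty acids reach the mitochondrial matrix as carnitine esters, are shortened there in repeated rounds of dehydrogenation, hydration, a second dehydrogenation and thiolysis, and pass their electrons to the respiratory chain through the electron transfer flavoprotein. Peroxisomes shorten very long and branched chains by the same order of reactions, with an oxidase at the first step and with bifunctional enzymes and thiolases of their own, and hand the shortened chains on as carnitine esters. In liver both routes are known to be under the fatty acid receptor PPARa, they are busiest during fasting, and acetyl-CoA from the mitochondrial route feeds ketone body synthesis.

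Values below are log2 levels as deposited, with the 3 animals of a group in the order 1, 2, 3. A difference is between group means on the log2 scale with its standard error (± SE, n = 3 animals per group), and a gene is called where limma gave an adjusted p under 0.05 over 45037 probe sets and the groups differed by more than 1.5-fold. Levels of different probe sets were not set against each other. No fold is given for Acox3 and Abcd2, which in at least 1 group were dimmer on average than 4.71, the largest of the 12 array medians.

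On the first principal component of all genes, wild-type TM animal 2 lay at 29.5, apart from animals 1 and 3 of its group at -12.9 and -11.9. Xist, transcribed from the inactive X chromosome, reached 12.19 in wild-type vehicle animal 1, 12.39 in Atf6a-/- vehicle animal 1 and 12.29 in Atf6a-/- TM animal 1 and at most 6.68 in the other 9 livers. The Atf6 probe set of highest mean lay between 6.60 and 6.88 in Atf6a-/- vehicle livers, against 8.42 to 8.54 in wild-type vehicle livers, while after TM it ran from 9.23 to 9.81 in Atf6a-/- and from 9.30 to 9.72 in wild-type livers. Since the deleted part is not known here, this signal does not check the genotype labels after TM. All 11 hepatocyte markers measured had group means above every array median, and their mean level was 14.13 to 14.25 in wild-type vehicle, 13.65 to 14.04 in wild-type TM, 14.01 to 14.28 in Atf6a-/- vehicle and 12.36 to 12.99 in Atf6a-/- TM livers. In such bulk RNA, fewer cells of a type and less RNA per cell cannot be told apart.

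In wild-type livers, 9 of the 33 genes were lower after TM and none was called higher. They were the mitochondrial genes Cpt2, Acads, Hadh, Acaa2, Eci1, Etfa and Etfdh, the peroxisomal thiolase gene Acaa1b, and Bdh1, the mitochondrial dehydrogenase that interconverts acetoacetate and beta-hydroxybutyrate. Of all 18193 genes, 3.86% were called lower in this comparison. The size of the fall was moderate for most of the 9, from 1.52-fold for Etfa to 3.20-fold for Acaa1b. Cpt1a, the carnitine acyltransferase of the outer mitochondrial membrane and the known control point of the mitochondrial route, differed by -0.11 ± 0.14.

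Acaa1b (probe set 1424451_at) measured 13.90, 13.99 and 14.20 after vehicle and 11.82, 12.81 and 12.44 after TM. Every TM animal was below every vehicle animal, and the difference was -1.68 ± 0.34 (adjusted p = 0.012). Bdh1 (1452257_at) went from 11.75, 11.61 and 11.81 to 10.06, 10.04 and 10.42, by -1.55 ± 0.27, with the 3 TM animals close together and below all vehicle animals. Hadh (1455972_x_at), the hydroxyacyl-CoA dehydrogenase for medium and short chains, measured 13.34, 13.22 and 13.36 after vehicle and 12.29, 12.04 and 12.37 after TM. Its difference was -1.07 ± 0.20, and the groups did not overlap.

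Acaa2, the mitochondrial thiolase, was at 13.14, 13.09 and 13.28 after vehicle and at 12.60, 12.27 and 12.43 after TM, a difference of -0.74 ± 0.12. For Acads, the dehydrogenase of short chains, the levels were 10.83, 10.98 and 11.001 against 10.38, 9.84 and 10.27, with a difference of -0.77 ± 0.13. Both genes were lowest in TM animal 2, the animal that stood apart over all genes, and the groups did not overlap for either. Cpt2, which releases acyl groups from carnitine inside the mitochondrion, measured 11.39, 11.08 and 11.09 against 10.65, 10.50 and 10.38 (-0.68 ± 0.12). Eci1, an isomerase for unsaturated chains, measured 11.38, 11.36 and 11.45 against 10.94, 10.51 and 10.78 (-0.65 ± 0.11). Again no TM animal reached the vehicle range.

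The electron transfer genes gave the smallest separations among the 9. Etfa, a subunit of the electron transfer flavoprotein, measured 12.10, 12.28 and 12.50 after vehicle and 11.90, 11.46 and 11.72 after TM (-0.60 ± 0.14, adjusted p = 0.027). Etfdh, the oxidoreductase that passes the electrons on to ubiquinone, measured 11.24, 11.24 and 11.47 against 10.97, 10.33 and 10.33 (-0.77 ± 0.17). In Etfa the lowest vehicle animal and the highest TM animal were 12.10 and 11.90. The call of Etfa was lost without vehicle animal 2 (-0.61) or 3 (-0.50) and without TM animal 2 (-0.48) or 3 (-0.61), and that of Etfdh without vehicle animal 3 (-0.69) and without TM animal 2 or 3 (-0.66 each). The calls of Cpt2 without vehicle animal 1 (-0.58), of Eci1 without TM animal 2 (-0.53) and of Acaa1b without vehicle animal 3 (-1.59) were lost as well. The second probe sets of Cpt2 (-0.19) and Etfdh (-0.14) were not called.

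Among the 24 genes not called in wild-type livers, Hadha passed the adjusted p with less than 1.5-fold (-0.43 ± 0.10). The TM and vehicle ranges did not overlap, with TM lower, in 17 of the 33 genes, against 15.0% of all genes. With TM higher they were apart in none, against 11.8% of all genes. Without wild-type TM animal 2, or without wild-type vehicle animal 3, 6 genes were called. When each array was shifted by its hybridisation spike-ins, which were dimmer on TM arrays, 3 remained (Hadh, Acaa1b and Bdh1). With that shift the median over all genes was 0.33, and it turned 702 genes lower and 628 higher into 371 lower and 2252 higher. Of the cell type markers, 5 of 11 for Kupffer cells were lower and 1 higher in this comparison, 1 of 11 for hepatocytes and 1 of 9 for stellate cells were lower, and 1 of 7 for neutrophils was higher, while none was called for lymphocytes, endothelial cells and cholangiocytes. Their part in the result was not tested.

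In Atf6a-/- livers, 24 of the 33 genes fell after TM and Pdk4 rose, against 12.8% of all genes called lower and 15.2% called higher. All 9 genes that were lower after TM in wild-type livers were among the 24. The falls included all 3 genes of the carnitine shuttle, all 4 genes of the matrix hydratase, dehydrogenase and thiolase steps, all 4 peroxisomal bifunctional enzyme and thiolase genes, and 4 of the 5 auxiliary genes for unsaturated chains. The largest were those of Acaa1b (304-fold), Bdh1 (48.2-fold), Hadh (12.1-fold) and Acaa2 (9.78-fold). The 8 genes without a call were Acadm, Etfb, Decr1, Acox2, Acox3, Abcd2, Pex11a and Crat.

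**Figure D1:**
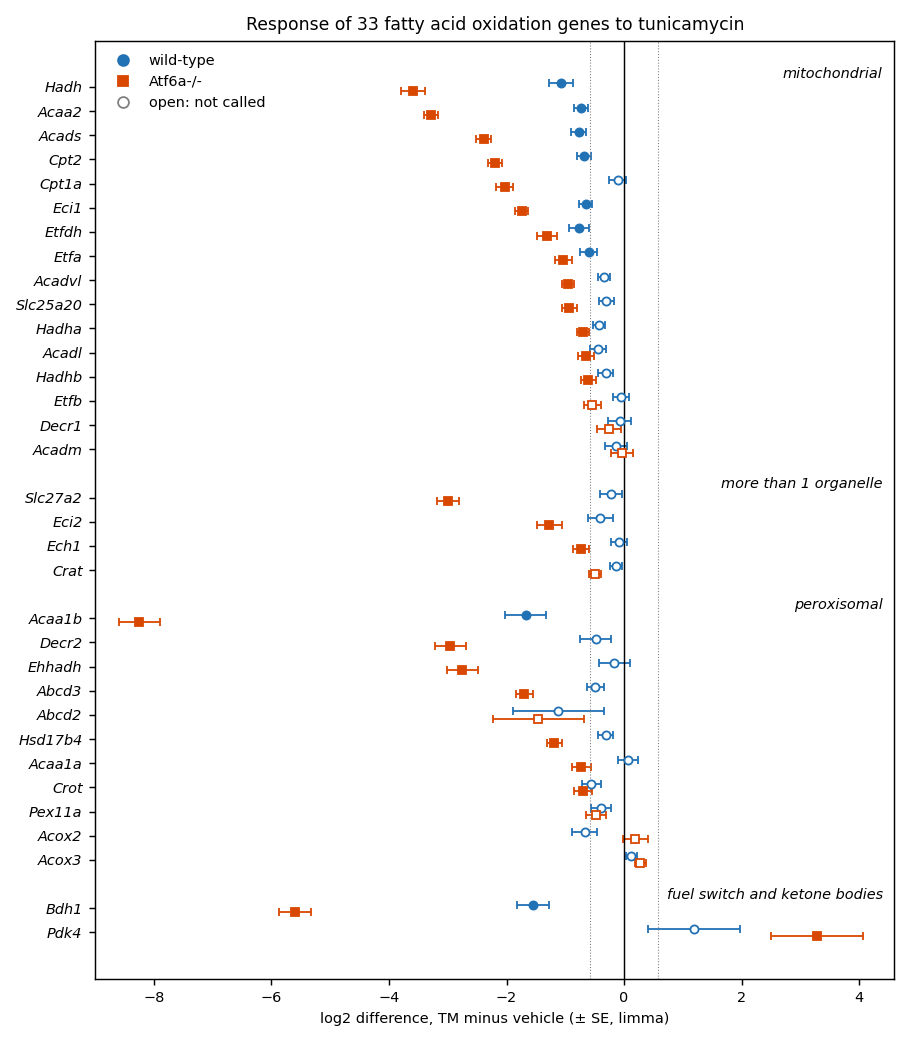
Log2 difference between TM and vehicle (x axis, ± SE from limma, n = 3 animals per group) for each of the 33 genes in wild-type livers (circles) and Atf6a-/- livers (squares), ordered by the Atf6a-/- value within mitochondrial, peroxisomal and other genes; filled symbols are called genes and dotted lines mark 1.5-fold. The wild-type values of all genes but Acaa1b, Bdh1, Hadh and Abcd2 lie between -0.77 and 1.19, while the Atf6a-/- values reach -8.25 for Acaa1b.

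At the entry to the mitochondrion, Cpt1a (1460409_at) measured 11.41, 11.55 and 11.33 in Atf6a-/- vehicle livers and 9.29, 9.37 and 9.54 in Atf6a-/- TM livers. Wild-type livers had 11.80, 11.40 and 11.69 after vehicle and 11.79, 11.29 and 11.50 after TM. The highest Atf6a-/- TM animal was 1.74 below the lowest of the 9 others, and the response was -2.03 ± 0.14 in Atf6a-/- livers (4.08-fold, adjusted p = 7.7e-07). Cpt2 went from 11.02, 11.06 and 10.85 to 8.80, 8.93 and 8.60 in Atf6a-/- livers (-2.20 ± 0.12), a further step below the wild-type TM animals. Slc25a20, the carrier that exchanges acylcarnitine for carnitine across the inner membrane, fell by less (-0.93 ± 0.12).

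The acyl-CoA dehydrogenases differ in the chain lengths they accept. Acads measured 10.76, 10.76 and 10.82 after vehicle and 8.39, 8.48 and 8.30 after TM in Atf6a-/- livers, a difference of -2.39 ± 0.13 with little spread in either group. Acadvl, for very long chains, differed by -0.96 ± 0.10 and Acadl, for long chains, by -0.65 ± 0.14. Acadm, for medium chains, was singled out after its values were seen, since it differed by -0.04 ± 0.19, with 12.64, 12.35 and 12.05 after vehicle and 11.92, 12.36 and 12.63 after TM. Its 2 groups overlapped over nearly their whole range.

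In the later steps of the matrix spiral, Hadh fell from 13.58, 13.29 and 13.01 to 9.42, 9.47 and 10.21 (-3.60 ± 0.20) and Acaa2 from 13.16, 13.06 and 12.89 to 9.57, 9.73 and 9.93 (-3.29 ± 0.12). The highest Atf6a-/- TM animal was 1.84 below the lowest wild-type TM animal for Hadh and 2.34 below it for Acaa2. Hadha and Hadhb, the subunits of the trifunctional protein that carries out 3 of the reactions on long chains, differed by -0.70 ± 0.10 and -0.61 ± 0.13. The calls of Acadl without Atf6a-/- vehicle animal 1 (-0.53) and of Hadhb without Atf6a-/- TM animal 1 or 2 (-0.58 each) were lost to the 1.5-fold threshold. The second probe set of Acadl differed by -0.15 and was not called.

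Hadha and Hadhb lie head to head, so that a single stretch of DNA precedes both. It is shown because the pair differed by similar amounts in each comparison that involved TM. In GRCm38.p6 the interval between their RefSeq first bases is chr5:30154981-30155252, 272 bases on the plus strand, with Hadha read leftwards from its left end and Hadhb rightwards from its right end. It holds 18 CG dinucleotides and is 60.3% G and C.
Hadha to Hadhb interval: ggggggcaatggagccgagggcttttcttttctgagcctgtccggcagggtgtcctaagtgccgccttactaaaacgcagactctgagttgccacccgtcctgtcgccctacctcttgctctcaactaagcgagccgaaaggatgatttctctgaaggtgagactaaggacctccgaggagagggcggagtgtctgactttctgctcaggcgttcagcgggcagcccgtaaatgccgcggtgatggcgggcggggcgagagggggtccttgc

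Eci1 fell from 11.23, 11.23 and 11.06 to 9.51, 9.42 and 9.36 (-1.75 ± 0.11), and Decr2, the peroxisomal dienoyl-CoA reductase, from 10.26, 10.39 and 10.17 to 7.51, 7.42 and 7.03 (-2.96 ± 0.26). The mitochondrial reductase Decr1 was not called (-0.26 ± 0.20), but its dimmer probe set differed by -1.93 and was called lower. Eci2 and Ech1, isomerases known in both compartments, fell by 1.27 ± 0.21 and 0.73 ± 0.14. In the electron transfer genes, Etfa fell from 12.27, 12.30 and 11.91 to 11.13 in each of the 3 TM animals, and Etfdh from 11.37, 11.35 and 11.02 to 10.01, 9.96 and 9.84. The differences were -1.03 ± 0.14 and -1.31 ± 0.17, while Etfb, the other subunit of the flavoprotein, passed the adjusted p below 1.5-fold (-0.54 ± 0.14). The second probe set of Etfdh differed by -0.02 and was not called.

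**Figure D2:**
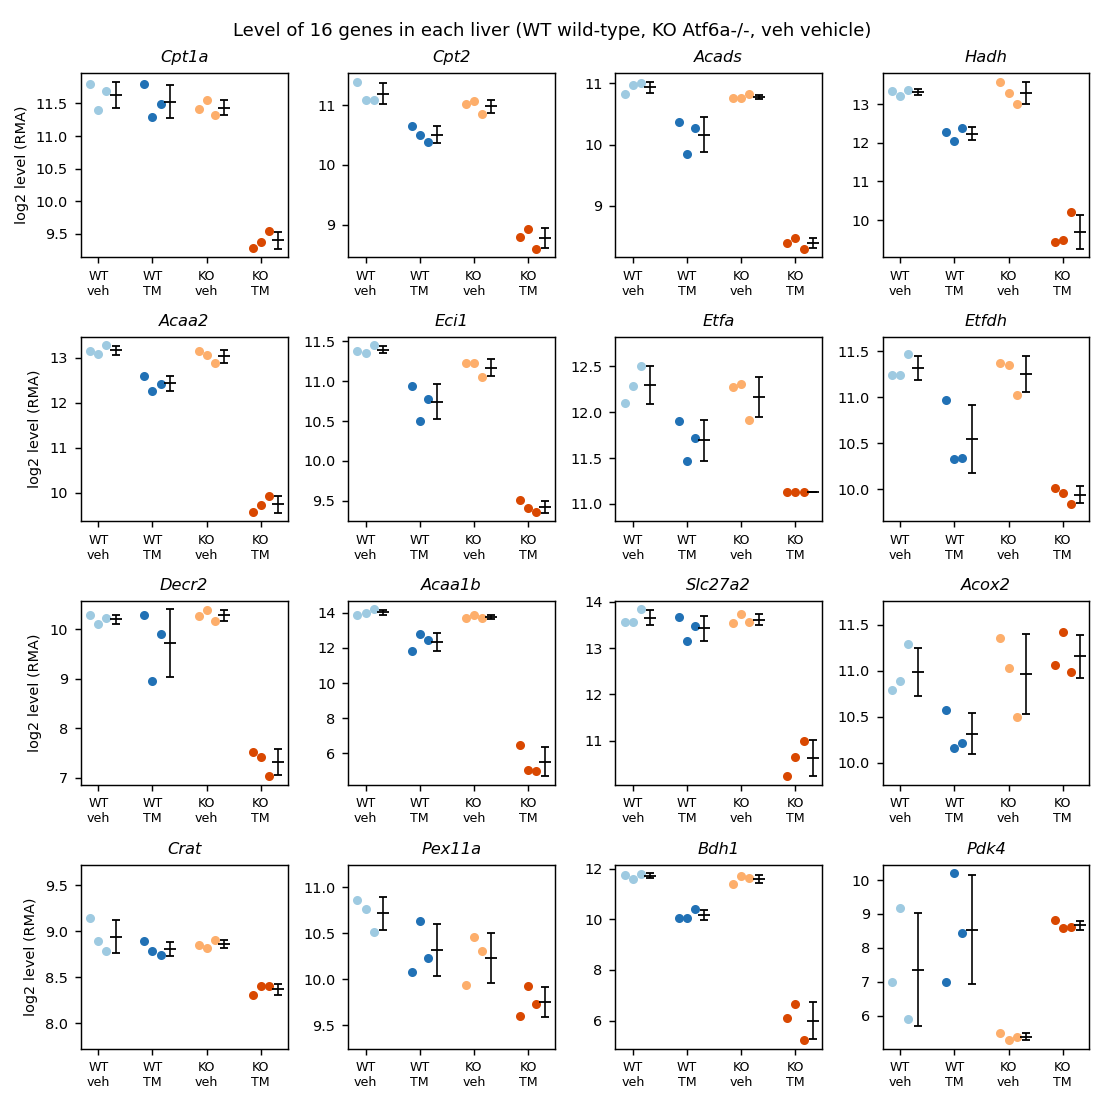
Log2 level (y axis, deposited RMA values, each panel on its own scale of at least 2 units) in each of the 12 livers for 16 of the genes. Dots are animals and the bar beside them is the mean ± SD of 3. The 3 Atf6a-/- TM livers lie 1.00 or more below the other 9 for Cpt1a, Cpt2, Acads, Hadh, Acaa2, Eci1, Decr2, Acaa1b, Slc27a2 and Bdh1. For Acox2 and Pdk4 they do not lie below the others.

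Among peroxisomal genes, Acaa1b had the largest difference of all 33. It measured 13.72, 13.89 and 13.71 in Atf6a-/- vehicle livers and 6.50, 5.06 and 5.02 in Atf6a-/- TM livers, a difference of -8.25 ± 0.34 (adjusted p = 2.0e-08). The TM levels of animals 2 and 3 were close to 4.71, the highest array median, and the lowest of the 9 other livers measured 11.82. Ehhadh and Hsd17b4, the 2 bifunctional enzymes that carry out hydration and dehydrogenation in the peroxisome, fell by 2.75 ± 0.26 and 1.19 ± 0.13. Acaa1a, a thiolase gene nearly identical to Acaa1b, is uncertain because both of its probe sets are of a type that can bind related transcripts. Its difference was -0.73 ± 0.17. The probe sets read for Hadh (1455972_x_at), Acaa2 (1428146_s_at) and Crat (1441919_x_at) are of such types too.

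The transcripts of Slc27a2 and Abcd3, whose proteins bring substrate into the peroxisome, fell as well. Slc27a2, the acyl-CoA synthetase that activates very long chains, went from 13.55, 13.75 and 13.56 to 10.22, 10.65 and 10.99 in Atf6a-/- livers (-2.998 ± 0.18). Wild-type livers had 13.55, 13.57 and 13.84 after vehicle and 13.68, 13.15 and 13.47 after TM, so that its fall was seen in the Atf6a-/- animals with a wild-type difference of -0.22 ± 0.18. Abcd3, a transporter of the peroxisomal membrane, fell by 1.70 ± 0.15, while its second probe set differed by -0.07 and was not called. Its relative Abcd2 was near the floor except in wild-type vehicle animal 1, at 7.05, and Atf6a-/- vehicle animal 1, at 6.98, against 3.59 to 4.61 in the other 10 livers. Those 2 animals are among the 3 with high Xist, and the third, Atf6a-/- TM animal 1, had 3.86.

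Crot, which makes carnitine esters of the shortened chains, fell by 0.70 ± 0.16, beside a wild-type difference of -0.55 ± 0.16, and its call was lost without Atf6a-/- vehicle animal 2 (-0.57). Its second probe set differed by -0.08 and was not called. Crat, the carnitine acetyltransferase, measured 8.85, 8.82 and 8.90 after vehicle and 8.30, 8.40 and 8.40 after TM in Atf6a-/- livers. Its difference of -0.49 ± 0.10 passed the adjusted p below 1.5-fold, with no overlap. The second brightest probe set of Crat differed by -1.52 and was called lower. Pex11a, a membrane protein of peroxisome division, measured 9.94, 10.46 and 10.31 against 9.60, 9.93 and 9.73 (-0.48 ± 0.17, adjusted p = 0.057).

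Neither of the 2 peroxisomal oxidase genes was called. Acox2, which acts on branched chains and bile acid intermediates, measured 11.36, 11.03 and 10.50 in Atf6a-/- vehicle livers and 11.07, 11.42 and 10.98 in Atf6a-/- TM livers, with overlap and a difference of 0.19 ± 0.21. Acox3, another branched-chain oxidase, lay under the highest array median in all 12 livers, between 4.003 and 4.44.

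Pdk4, the kinase that shuts off pyruvate dehydrogenase and so turns mitochondria from glucose to fatty acids, was the exception in direction. It measured 5.48, 5.27 and 5.38 in Atf6a-/- vehicle livers and 8.81, 8.57 and 8.60 in Atf6a-/- TM livers, a rise of 3.29 ± 0.79 (9.76-fold, adjusted p = 0.0070). Wild-type livers varied far more, with 6.99, 9.16 and 5.90 after vehicle and 6.99, 10.20 and 8.43 after TM, and the 1.19 ± 0.79 between them was not called (adjusted p = 0.50). The wild-type vehicle SD of Pdk4 was 1.66, the largest of the 33 genes in that group, where the median SD was 0.128. Bdh1 fell from 11.41, 11.73 and 11.63 to 6.12, 6.66 and 5.22 in Atf6a-/- livers (-5.59 ± 0.27).

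The ranges did not overlap, with TM lower, for 28 of the 33 genes in Atf6a-/- livers, against 23.7% of all genes. With TM higher they were apart for 2, against 24.1% of all genes. Scaling changed the split: 27 lower and Pdk4 higher with a shift by Btf3 and Ppia, and 15 lower and 3 higher (Pdk4, Acox2 and Acox3) with the spike-in shift. Over all genes that split was 2337 lower and 2765 higher as deposited, 3775 and 1931 with Btf3 and Ppia, and 1393 and 6280 with the spike-ins. Of the markers of liver cell types, 8 of 11 for hepatocytes were lower in this comparison, 7 of 11 for Kupffer cells were lower and 2 higher, and 3 of 9 each for endothelial and stellate cells and 1 of 9 for lymphocytes were lower. Of the neutrophil markers 2 of 7 were higher, and none of the 5 cholangiocyte markers was called. The signal of the actin 3' control probe set minus that of the 5' one on the log2 scale, a sign of RNA quality, was 0.91, 0.88 and 1.0002 in Atf6a-/- TM livers, 1.08 to 1.23 in Atf6a-/- vehicle livers, 1.12 to 1.20 in wild-type TM livers and 0.997 to 1.32 in wild-type vehicle livers. The part of these in the fatty acid oxidation values was not tested.

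Set side by side after TM, Atf6a-/- livers were lower than wild-type livers in 19 of the 33 genes and higher in Acox2, against 8.45% of all genes called lower and 11.3% called higher. The lower genes were 9 mitochondrial, 6 peroxisomal, Eci2, Ech1, Slc27a2 and Bdh1. The differences ran from -6.83 ± 0.34 for Acaa1b (114-fold) through -4.17 ± 0.27 for Bdh1 (18.1-fold), -2.87 ± 0.26 for Ehhadh, -2.81 ± 0.18 for Slc27a2, -2.69 ± 0.12 for Acaa2 and -2.53 ± 0.20 for Hadh to -0.61 ± 0.17 for Etfdh. Cpt1a differed by -2.12 ± 0.14 (4.35-fold), Decr2 by -2.39 ± 0.26, Acads by -1.77 ± 0.13 and Cpt2 by -1.73 ± 0.12.

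Acox2 stood in the other direction. Its wild-type levels were 10.79, 10.88 and 11.29 after vehicle and 10.57, 10.16 and 10.22 after TM, and every wild-type TM liver was below every Atf6a-/- TM liver. The difference between the genotypes after TM was 0.84 ± 0.21 (adjusted p = 0.015). Without Atf6a-/- TM animal 2 (0.71) or wild-type TM animal 3 (0.79) it was not called, and neither was Etfdh without wild-type TM animal 1 (-0.40) or Atf6a-/- TM animal 2 (-0.62) or 3 (-0.56). Decr2 spread widely among wild-type TM livers, at 10.29, 8.96 and 9.89 against 10.28, 10.10 and 10.22 after vehicle, with animal 2 lowest. Even that animal was 1.45 above the highest Atf6a-/- TM liver.

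Of the 13 genes not called between genotypes after TM, 7 passed the adjusted p below 1.5-fold, all with lower levels in Atf6a-/- livers (Acadl, Hadha, Hadhb, Etfa, Etfb, Pex11a and Crat), between -0.56 and -0.43. In Crat, wild-type livers measured 9.14, 8.89 and 8.79 after vehicle and 8.89, 8.79 and 8.74 after TM, all above the Atf6a-/- TM livers. In Pex11a they measured 10.87, 10.77 and 10.51 against 10.08, 10.63 and 10.24. The ranges of the genotypes did not overlap, with Atf6a-/- lower, in 26 of 33 genes, against 16.2% of all genes. With Atf6a-/- higher they were apart in 2, against 19.5% of all genes. Of the hepatocyte markers, 6 of 11 were lower in Atf6a-/- livers (among them Fga, -3.24 ± 0.22, and Cyp2e1, -2.38 ± 0.26) while Alb differed by -0.41 ± 0.10. Neutrophil markers had a mean of 6.44 to 7.46 in Atf6a-/- TM and 5.76 to 6.50 in wild-type TM livers, and 2 of 7 were higher in Atf6a-/- livers (S100a8 and S100a9). The median difference over the 7 was -0.04, so the higher mean does not describe the list as a whole. Of the other cell types, 1 marker each of Kupffer cells (Cd68, of 11) and endothelial cells (Fcgr2b, of 9) was higher, and none of the lymphocyte, stellate cell and cholangiocyte markers was called. The part of these markers in the result was not tested.

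The interaction asks whether the TM response itself differed between genotypes. It was called for 15 of the 33 genes, all with the larger fall in Atf6a-/- livers, against 6.69% of all genes called in that direction. They were 8 mitochondrial genes (Cpt1a, Cpt2, Slc25a20, Acadvl, Acads, Hadh, Acaa2 and Eci1), 5 peroxisomal genes (Acaa1b, Ehhadh, Hsd17b4, Decr2 and Abcd3), Slc27a2 and Bdh1. Of the 9 genes already lower in wild-type livers, 7 were among the 15, and Etfa (-0.43 ± 0.20) and Etfdh (-0.54 ± 0.24) were not. The call of Acadvl (-0.62 ± 0.14) was lost without wild-type TM animal 1 (-0.52) or Atf6a-/- vehicle animal 2 (-0.57). That of Slc25a20 (-0.63 ± 0.18, adjusted p = 0.040) was lost without any 1 of 8 of the 12 animals, at -0.68 to -0.53. For Pdk4 the difference of the responses was 2.10 ± 1.11 and was not called (adjusted p = 0.32).

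Between the genotypes after vehicle, limma called none of the 33 genes, against 0.0055% of all genes, and 2 had an unadjusted p under 0.05 (Pdk4, -1.97 ± 0.79, and Pex11a, -0.48 ± 0.17). None was called by the methods' t-test, with or without adjustment. As deposited, 30 of the 33 differences were below 0, against 9025 of all 18193 genes. All 16 mitochondrial genes had lower means in Atf6a-/- vehicle livers, between -0.22 and -0.01. The genes were read in the same animals, so these signs are not independent. None of the 33 had ranges apart with Atf6a-/- higher, against 4.18% of all genes. In 9 genes the ranges did not overlap, with Atf6a-/- lower, against 3.91% of all genes. They were Cpt2, Acadvl, Acads, Hadha, Hadhb, Eci1, Acaa1b, Pex11a and Pdk4. Atf6a-/- vehicle animal 3 had the lowest mean over the mitochondrial genes in its group, at -0.31 relative to the wild-type vehicle mean, against -0.06 and -0.11 in animals 1 and 2.

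Mitochondrial and peroxisomal genes were compared by their mean over the genes of a compartment in each liver, relative to the wild-type vehicle mean. The 16 mitochondrial genes lay at -0.24, -0.62 and -0.54 in wild-type TM livers and at -1.61, -1.57 and -1.48 in Atf6a-/- TM livers. The 11 peroxisomal genes lay at -0.44, -0.61 and -0.50 and at -1.78, -1.93 and -1.999. In both compartments every wild-type TM liver was below every wild-type vehicle liver, and every Atf6a-/- TM liver was below every wild-type TM liver. The peroxisomal minus the mitochondrial mean was -0.17, -0.36 and -0.52 in Atf6a-/- TM livers and ran from -0.20 to 0.04 in wild-type TM livers, so that animal 1 of the Atf6a-/- TM group was inside the wild-type range.

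**Figure D3:**
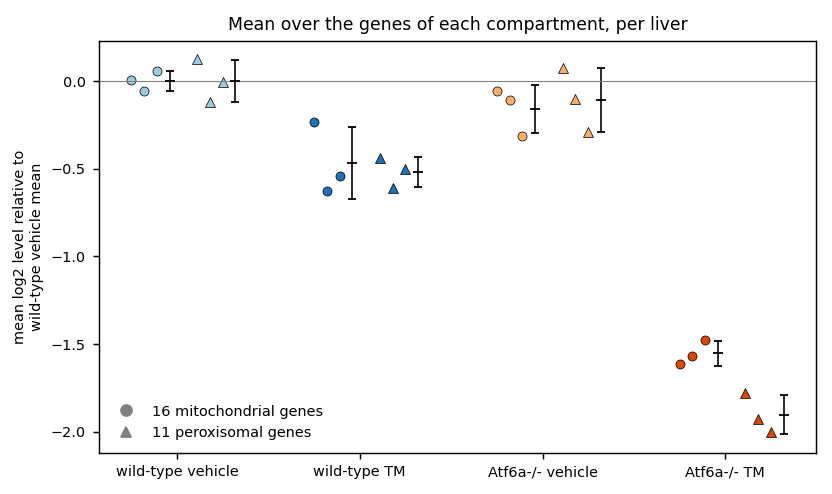
Mean log2 level over the 16 mitochondrial genes (circles) and the 11 peroxisomal genes (triangles) in each liver, relative to the mean of the wild-type vehicle group (y axis), for the 4 groups (x axis); bars are the mean ± SD of 3 animals. Atf6a-/- TM livers lie between -1.48 and -1.61 for mitochondrial genes and between -1.78 and -1.999 for peroxisomal genes.

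The size of the gap depended on which genes were counted. The mean difference between genotypes after TM was -1.09 over the mitochondrial genes and -1.39 over the peroxisomal genes, and -0.84 over the peroxisomal genes without Acaa1b. The medians were -0.72 and -0.87, and without Acaa1b the peroxisomal median was -0.72, against 0.00 over all genes. With Slc27a2 counted as peroxisomal, a choice made after its values were seen, the peroxisomal mean was -1.504 and the median -0.91, and without Acaa1b they were -1.02 and -0.87. In Atf6a-/- livers the medians of the TM response were -0.997 and -1.19, with -0.96 without Acaa1b, and in wild-type livers they were -0.44 and -0.48. The median over all genes was -0.01 and -0.02. Each compartment held genes with large and with small differences: in Atf6a-/- livers the mitochondrial responses ran from -3.60 to -0.04 and the peroxisomal from -8.25 to 0.28, the last for Acox3 under the highest array median.

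Of the 33 genes, 18 have several probe sets. After TM, 13 of the 25 further probe sets were called lower in Atf6a-/- livers and none higher, against 5.85% of all probe sets called lower, so that no gene had probe sets called in opposite directions. For Bdh1, Acaa2, Hadh, Cpt1a, Hsd17b4 and Slc25a20 the further probe sets were called as well. For Cpt2 (-0.41 ± 0.11) and Abcd3 (-0.10 ± 0.16) they were not, and the second probe set of Etfdh differed by 0.14 ± 0.11, in the other direction from the first. For Crat, Decr1 and Acaa1a a dimmer probe set gave a larger difference, of -2.25 ± 0.33, -1.82 ± 0.28 and -2.21 ± 0.26, against -0.44, -0.35 and -0.87 for the probe set of highest mean. Which transcripts these probe sets read was not tested.

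**Figure D4:**
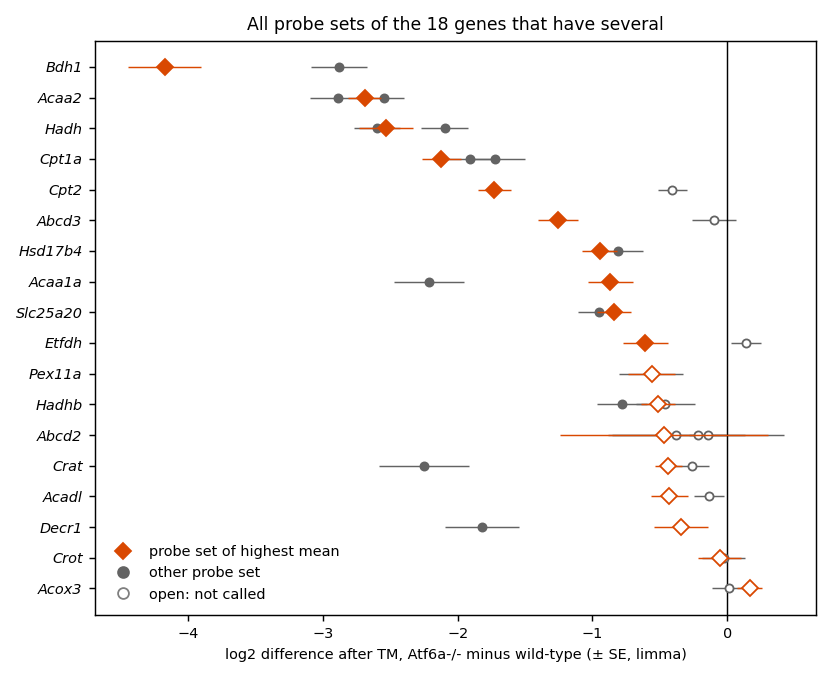
Log2 difference between Atf6a-/- and wild-type livers after TM (x axis, ± SE from limma, n = 3 animals per group) for each probe set of the 18 genes that have several; diamonds are the probe set of highest mean, circles the others, and filled symbols are called. The probe sets of Hadh, Acaa2 and Cpt1a lie close together, while those of Crat, Decr1, Acaa1a, Abcd3, Cpt2 and Bdh1 are more than 1 apart.

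PPARa binds DNA with a partner at direct repeats of AGGTCA with 1 base between them, and the promoters were searched for AGGTCANAGGTCA on both strands. The RefSeq table (GRCm38.p6) held a window from 250 bases before to 50 after the start for 28 of the 33 genes. None of the 28 held an exact match, which 0.0481% of 27025 genes did. With up to 2 mismatches 3 genes had a match (10.7%), against 4.4% of all genes, and with up to 3 mismatches 8 genes had one (28.6% against 27.3%). The 3 matches, in capitals with 8 bases to each side, are shown because they are the nearest to the repeat among these promoters.
Acox2, chr14:8258810-8258838, minus strand, 9 to 21 after the start: gctgtcccAGGACAGAGGTGAgtcaagag
Etfa, chr9:55512300-55512328, minus strand, -77 to -65 from the start, repeat on the opposite strand: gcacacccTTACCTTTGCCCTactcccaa
Slc25a20, chr9:108662134-108662162, plus strand, 6 to 18 after the start: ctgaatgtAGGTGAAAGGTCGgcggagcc
Their genes differed between genotypes after TM by 0.84, -0.56 and -0.84 on the log2 scale, and the value for Etfa was not called. The other genes with a window had no match at 2 mismatches. Binding of PPARa at these sites was not tested.

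A list of further genes of the same pathway was drawn up beside the 33. Of 41 measured, 23 were lower and 1 higher in Atf6a-/- than in wild-type livers after TM, with a median of -0.98, against 8.45% of all genes called lower and 11.3% called higher. In the TM response of wild-type livers 12 were lower and 1 higher, against 3.86% and 3.45% of all genes, and in that of Atf6a-/- livers 30 were lower and 1 higher, against 12.8% and 15.2%. The largest falls were in Acsm3, a medium-chain acyl-CoA synthetase (-3.86 ± 0.24), Slc27a5, a fatty acid and bile acid CoA ligase (-2.93 ± 0.25), and Echdc3 (-2.85 ± 0.28). Acsl4, a long-chain acyl-CoA synthetase that prefers arachidonate, was the 1 that was higher (1.18 ± 0.25). It measured 10.24, 9.27 and 9.89 in wild-type TM and 10.77, 11.04 and 11.12 in Atf6a-/- TM livers, and was also higher after TM than after vehicle in both genotypes.

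For ketone bodies, 4 further genes were measured, and 2 were lower and 2 higher in Atf6a-/- livers after TM. Acat1, the thiolase that joins acetyl-CoA units, differed by -2.17 ± 0.21 and is on the list above too, and Bdh2 by -1.36 ± 0.21. Slc16a6, a transporter that lets ketone bodies out of hepatocytes, was higher by 4.10 ± 0.23. It measured 5.58, 6.48 and 5.39 in wild-type TM livers and 10.04, 9.77 and 9.93 in Atf6a-/- TM livers, against 4.68 to 5.03 in all vehicle livers, so that the enzyme Bdh1 and this exporter moved in opposite directions.

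Of 20 genes of peroxisome biogenesis, 5 were lower in Atf6a-/- than in wild-type livers after TM and 1, Pex3, was higher (0.70 ± 0.14), with a median of -0.01, against 8.45% of all genes called lower and 11.3% called higher. The falls were led by the membrane proteins Pxmp2 (-4.64 ± 0.31) and Pxmp4 (-1.88 ± 0.21) and by Pex26 (-1.48 ± 0.21), which anchors the import machinery. Pxmp2 measured 12.10, 10.71 and 11.70 in wild-type TM livers and 7.08, 6.61 and 6.91 in Atf6a-/- TM livers, while its vehicle levels ran from 11.32 to 12.08. Pex6 and Pex13 were the other 2 that were lower.

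Ppara, the gene of the receptor, measured 11.14, 11.31 and 11.52 in wild-type vehicle livers, 10.14, 9.92 and 10.31 in wild-type TM livers, 11.14, 11.30 and 11.10 in Atf6a-/- vehicle livers and 6.24, 6.68 and 5.90 in Atf6a-/- TM livers. It was lower after TM in both genotypes (-1.20 and -4.91), and the genotypes differed after TM by -3.85 ± 0.18. Of 25 genes on a list of PPARa regulators and of its targets outside oxidation, 15 were lower and 5 higher in Atf6a-/- livers after TM, against 8.45% and 11.3% of all genes, with a median of -1.04. Fabp1, the fatty acid binding protein of liver, differed by -5.41 ± 0.42 and Gys2, the liver glycogen synthase, by -4.68 ± 0.59, while Acot5, a peroxisomal acyl-CoA thioesterase, was called higher. No size is given for Acot5, which was under 4.71, the highest array median, between 2.94 and 3.24 in the 9 other livers, and measured 8.92, 8.72 and 9.81 in Atf6a-/- TM livers.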

How the data were processed

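The authors processed the arrays by RMA, and the deposited values are on its log2 scale; the submitters' processing notes name affy and limma without versions. Nothing further was done to the values. Of 45101 features, 64 AFFX controls were left out, leaving 45037, of which 34945 have 1 gene symbol in the platform table, 932 several and 9160 none; probe sets with several or none were not named, so Cyp4a10 is not analysed here. The number of arrays limits the precision. The source field of the labels says 8 h, the titles and protocol 34 h.

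One mean per group was fitted to all 12 arrays by lmFit, contrasts.fit and eBayes of limma (version 3.58.1, R 4.3.3), in 5 contrasts, two-sided, with Benjamini-Hochberg adjustment over all probe sets of a contrast. A call needed more than 1.5-fold, the fold of the study's methods, with an adjusted p under 0.05. The fit was run on simulated data for the wild-type comparison, with shifts of -3, -1.5, 1.5 and 3 on the log2 scale. It called 50, 47, 48 and 49 of the 50 probe sets given each shift, and 8 of 44837 without a shift. Shifts nearer the 1.5-fold threshold were not simulated. The labels give 1 animal per array, and animals are the replicates.

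The members and the gene lists were chosen with earlier results of these data known, so no test over a list was made. Each list is described by its counts and median. Animals are given for the member of each step with the largest difference between genotypes after TM, for every member called in wild-type livers or between vehicle groups, and for every member called higher after TM in Atf6a-/- animals; from other lists up to 3 called members with the largest difference and Ppara are named. Acadm, Abcd2, Acsl4, Pex3, Pex6 and Pex13 and the markers were named after their values were seen. Alternatives were other scalings, tests, thresholds and probe sets, Xist as a covariate, and each animal left out. Promoters came from RefSeq. Python 3.11.15 was used with matplotlib 3.10.9, numpy 2.4.6 and pandas 2.3.3.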

Additional observations from a re-analysis of the deposited data

Results flagged for a closer look

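The response to TM differed between the genotypes, by a test of the interaction in limma, in 15 of the 33 genes. The differences, Atf6a-/- response minus wild-type response on the log2 scale, were -1.92 for Cpt1a, -1.52 for Cpt2 and -0.63 for Slc25a20 in the carnitine shuttle. Among the dehydrogenases they were -0.62 for Acadvl and -1.62 for Acads, and in the later matrix steps -2.53 for Hadh, -2.55 for Acaa2 and -1.09 for Eci1. In the peroxisome they were -6.57 for Acaa1b, -2.59 for Ehhadh, -0.87 for Hsd17b4, -2.47 for Decr2 and -1.21 for Abcd3. Slc27a2 (-2.77) and Bdh1 (-4.05) complete the 15. For Cpt1a, Slc25a20, Acadvl, Ehhadh, Hsd17b4, Decr2, Abcd3 and Slc27a2 no change was called in wild-type livers.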

How the results depend on the processing

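The calls of 10 of the 15 interactions, 9 of the 20 differences between genotypes after TM, 13 of the 25 Atf6a-/- responses and none of the 9 wild-type responses held under every alternative. Setting aside a 2-fold threshold and the methods' t-test after Benjamini-Hochberg adjustment, 11, 15, 14 and 2 held. In wild-type livers 3 genes were called with the spike-in shift, 3 at 2-fold and 0 with that t-test, which called 10 without adjustment. Between genotypes after TM 12 were called at 2-fold and 11 with the t-test. The only reversed sign of a called value was that of Etfdh between genotypes after TM with its second probe set (0.14). In the order mitochondrial then peroxisomal, the spike-in shift gave medians of -0.086 and -0.13 for the wild-type response, -0.52 and -0.71 for the Atf6a-/- response, and -0.52 and -0.66 between genotypes after TM, where it moved the median of all genes to 0.33, 0.46 and 0.21. The shift by Btf3 and Ppia gave -1.28 and -1.47 in Atf6a-/- livers, -1.04 and -1.18 between genotypes and -0.89 and -1.11 for the interaction, with all genes at -0.30, -0.31 and -0.29. Averaging probe sets gave peroxisomal medians of -0.34, -1.01, -0.68 and -0.61 (wild-type, Atf6a-/-, between genotypes after TM, interaction) and a mitochondrial median of -0.87 between genotypes. The second probe set gave peroxisomal medians of -0.32 in wild-type livers, -0.57 between genotypes after TM, -0.24 after vehicle and -0.020 for the interaction, and bright probe sets alone -1.32 in Atf6a-/- livers. With Slc27a2 added to the peroxisomal genes, chosen after seeing the data, that median was -1.32 too. Leaving out 1 animal, counts ran from 6 to 11 in wild-type livers, 24 to 26 in Atf6a-/- livers, 20 to 22 between genotypes after TM and 13 to 17 for the interaction. Peroxisomal medians then ran from -0.61 to -0.35, -1.28 to -0.83, -1.04 to -0.72 and -0.96 to -0.59, and the mitochondrial interaction median from -0.67 to -0.43. After vehicle the peroxisomal median was 0.02 without Atf6a-/- vehicle animal 3 and 0.01 with the spike-in shift. With the animal number as a replicate block, counts were 9, 25, 20, 0 and 15, as without it; same-numbered animals deviated with correlations of -0.18 to 0.37, and the labels give the number no shared source. The causes of these shifts were not tested.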
